A study of Mus musculus with 40 samples.

Results

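The genes described here are 8 genes listed as marking mesothelium: Lrrn4, Upk3b, Upk1b, Msln, Wt1, Muc16, Bnc1 and Gpm6a. They were found by gene name among the 54532 genes of the deposited table, and all 8 had 1 row each. Mesothelium is the single layer of flat, keratin-rich cells that covers the organs and walls of the body cavities, and the outer surface of the uterus, its serosa, carries it. Mesothelial cells secrete a lubricating fluid rich in glycoproteins, hold a barrier against adhesion and can take part in repair of the surface. They arise from the coelomic lining of the embryo, which also gives the Müllerian duct from which the uterus forms.

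The series measured whole mouse uterus by bulk RNA-seq in 40 libraries, 5 in each of 8 groups. Mice at postnatal day 25 received doxorubicin (dox), an anthracycline that damages DNA, at 3 mg/kg in 2 weekly doses. Others received dox together with anti-Müllerian hormone (AMH), a hormone of the TGF-beta family, at 0.75 mg/kg, AMH alone at that dose, or PBS/saline as control. Each of these 4 treatments was harvested at 4 h and at 24 h. Strain, and the number of AMH injections, are not stated in the labels. Replicates are called biological in the labels, without a statement that 1 mouse gave 1 library, so the p-values measure the spread between these libraries. RNA of the muscle and stroma of the uterus was far more abundant than that of the mesothelial genes. Acta2, an actin of smooth muscle, averaged 1736 FPKM (a read level corrected for gene length and for library size) over the 40 libraries, and Col1a1, a collagen of stroma, averaged 815 FPKM. The reads assigned to genes came to between 16251563 and 27391049 per library. The library size behind the FPKM values was 0.859 to 1.057 times that sum, so it was not the plain total. In bulk tissue, fewer mesothelial cells and less RNA per cell cannot be told apart.

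Some libraries stood apart in the markers of other tissues, by a mean log2 level of a marker list above the median of the 40 libraries. Markers of oviduct and ciliated cells were at least 1 unit up in 8 libraries, namely libraries 3 and 4 of dox 4 h, 5 of dox+AMH 4 h, 4 of control 4 h, 3, 4 and 5 of dox 24 h and 4 of dox+AMH 24 h. Oestrogen-responsive genes were at least 0.6 units up in 9 libraries, among them libraries 1, 2 and 4 of control 24 h and library 1 of control 4 h. Markers of ovary were at least 1 unit up in 4 libraries. Calls between groups that the libraries high in oviduct, oestrogen-responsive or ovary markers changed are given with and without them. Squamous markers of cervix and vagina also stood apart, and no libraries were left out for them. Their list mean was highest in library 2 of dox 4 h (5.20), 1 of dox 24 h (4.76), 3 of control 4 h (4.26) and 4 of AMH 4 h (3.25). The group medians were 0.64 to 1.73.

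The promoters of the genes that turned out to move together are shown first, for the 3 whose level differed between AMH and control at 4 h. Each is the stretch of 250 bases before the transcript start in RefSeq, on build GRCm38.p6, read 5′ to 3′ along the gene's own strand. Capitals mark the core GGAATG, on either strand, that TEAD factors of the Hippo pathway are known to bind. The Lrrn4 window lies at chr2:132880863-132881112 on the minus strand, the Upk3b window at chr5:136038246-136038495 on the plus strand, and the Bnc1 window at chr7:81992300-81992549 on the minus strand.
Lrrn4: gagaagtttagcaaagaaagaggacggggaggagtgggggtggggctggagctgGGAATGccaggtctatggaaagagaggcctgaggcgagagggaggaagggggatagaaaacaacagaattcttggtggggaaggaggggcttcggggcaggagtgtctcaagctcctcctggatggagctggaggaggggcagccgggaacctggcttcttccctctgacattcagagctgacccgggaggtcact
Upk3b: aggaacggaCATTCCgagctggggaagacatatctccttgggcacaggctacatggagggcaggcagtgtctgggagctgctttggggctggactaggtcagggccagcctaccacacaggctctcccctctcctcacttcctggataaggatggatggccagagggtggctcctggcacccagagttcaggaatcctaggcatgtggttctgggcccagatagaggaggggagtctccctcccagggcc
Bnc1: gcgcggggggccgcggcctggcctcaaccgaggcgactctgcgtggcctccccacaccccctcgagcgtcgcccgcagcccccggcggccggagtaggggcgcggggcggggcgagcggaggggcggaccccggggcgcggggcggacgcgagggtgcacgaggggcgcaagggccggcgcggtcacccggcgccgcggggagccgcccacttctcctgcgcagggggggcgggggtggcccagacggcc
The core began 196 bases before the start of Lrrn4 and 241 bases before that of Upk3b. It was absent from the Bnc1 window. Of the 32851 promoter windows of the same length in the table, 12.6% held it. RefSeq windows were matched for 5 of the 8 genes, 6 windows in all, since Gpm6a had a pair. The core was in 3 of these 6, the third being a Gpm6a window at chr8:54779184-54779433 on the plus strand, where it began 125 bases before the start. That window lies well outside the Gpm6a span whose level was measured, chr8:54954843-55060871. The Gpm6a window beside that span, chr8:54954478-54954727, lacked the core. The Bnc1 window was 83.6% G and C, against a median of 52.4% over all windows, and held 5 copies of the GC box GGGCGG on either strand, which SP and KLF factors bind and which 32.7% of all windows held. The WT1 motif GTGGGAG, searched on both strands, was in none of the 6 windows, against 8.25% of all windows. The motif AGATAA of GATA factors was likewise in none of them, against 9.99% of all windows. TATAAA was in the second Gpm6a window only, against 12.4% of all windows. A match describes the letters of the window and is no evidence of binding.

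The 8 genes spanned a wide range of levels, all far below the main markers of muscle and stroma. FPKM values are scaled to gene length, so levels can be set side by side. Wt1, a zinc finger transcription factor of mesothelium that uterine stroma and muscle also express, was highest at a mean of 23.3 FPKM over 40 libraries (range 11.5 to 31.9). Upk3b, a uroplakin-family membrane protein of mesothelium and urothelium, followed at 15.6 FPKM (range 3.52 to 39.3), and was below Wt1 in 31 of 40 libraries. Msln, or mesothelin, a glycoprotein anchored to the cell surface, averaged 9.43 FPKM (range 0.645 to 24.0) and was below Upk3b in 36 libraries.

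The other 5 genes lay lower. Gpm6a, a membrane glycoprotein best known in neurons and also made by mesothelium, averaged 4.60 FPKM (range 2.70 to 11.5), below Msln in 36 libraries. Upk1b, a tetraspanin partner of the uroplakins, averaged 4.00 FPKM (range 1.10 to 10.6), below Gpm6a in 31 libraries. Lrrn4, a leucine-rich repeat membrane protein, averaged 3.40 FPKM (range 0.0114 to 11.1). Upk1b exceeded Lrrn4 in only 27 of 40 libraries, so these neighbours were the least separated in the order. Bnc1, the zinc finger protein basonuclin, averaged 0.979 FPKM (range 0.183 to 3.17), below Lrrn4 in 39 libraries. Muc16, the large membrane mucin that binds mesothelin and carries the CA125 antigen in humans, averaged 0.177 FPKM (range 0.0145 to 0.834) and was below Bnc1 in all 40 libraries.

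**Figure D1:**
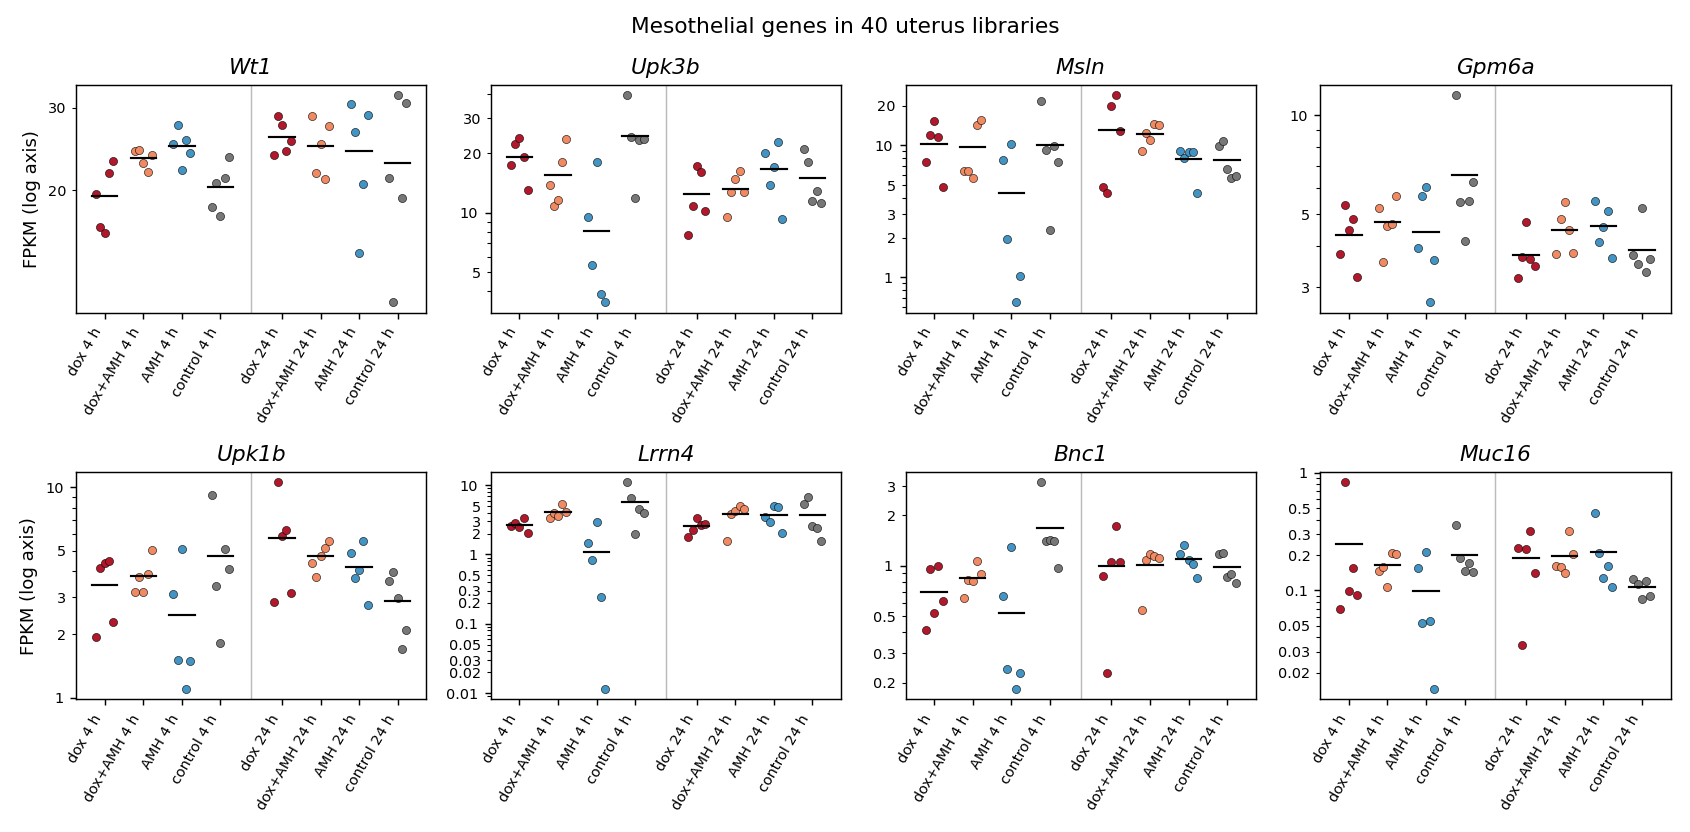
FPKM of each mesothelial gene in every library (points) with the group mean (black bar), on log axes that differ between genes. Groups are dox, dox+AMH, AMH and control, at 4 h left of the grey line and 24 h right of it, with 5 libraries each. For the 7 genes other than Wt1 the lowest of the 40 points is a library of AMH at 4 h, down to 0.0114 FPKM for Lrrn4.

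On the build mm10 named in the submitters' processing notes, Lrrn4 spans chr2:132868305-132880891, Wt1 chr2:105126529-105173616, Upk3b chr5:136038496-136046487 and Bnc1 chr7:81966672-81992292. Gpm6a spans chr8:54954843-55060871, Muc16 chr9:18495455-18674530, Upk1b chr16:38773184-38800328 and Msln chr17:25748614-25754327. The values are sums over each gene, so exon and UTR use within a gene is not resolved. The exons of Bnc1 overlap those of a pseudogene on the opposite strand, 4833418N17Rik, which averaged 0.0755 FPKM. Whether counting used strand is not given in the sources used here, so reads of this pair may be shared. Bnc1 and Lrrn4 rest on few reads: the rebuilt reads ran from 19 to 281 per library for Bnc1 and from 1 to 786 for Lrrn4.

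Differences between groups were tested with limma on log2(FPKM + 1) over the 16226 genes that reached 1 FPKM in 5 or more libraries, with Benjamini-Hochberg adjustment over all of them. A gene was called at an adjusted p under 0.05, and the log2 scale understates the change of low genes such as Bnc1. Of the 8 mesothelial genes 7 entered the test. Muc16 never reached 1 FPKM and entered no test between groups unless the filter was dropped. The count-based test, voom on rebuilt reads, called the same number of the 7 genes in every comparison except dox against control at 24 h (1) and AMH at 24 h against 4 h (3). Bnc1 reached 1 FPKM in 20 of 40 libraries, Lrrn4 in 37 and Msln in 39, and the other 4 in all 40.

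At 4 h after AMH, 3 genes differed from control. Lrrn4, Upk3b and Bnc1 fell in AMH uteri relative to control uteri, 3 of 7 tested genes and all downward, where 10.9% of all tested genes fell and 20% were called in either direction. The median log2 difference of the 7 was -0.81, against 0.009 over all tested genes, and 6 of 7 lay below 0. The comparisons with control at a given time share the 5 control libraries of that time, so they are not independent of each other.

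Lrrn4 had 1.46, 0.838, 2.90, 0.241 and 0.0114 FPKM in the AMH libraries at 4 h, against 11.1, 6.59, 1.95, 4.51 and 4.02 FPKM in the control libraries. AMH libraries 4 and 5 were far lower than any control, and library 5 held a rebuilt count of 1 read, while AMH library 3 lay above control library 3. The means were 1.09 ± 1.16 FPKM in AMH uteri and 5.63 ± 3.47 FPKM in control uteri (SD, n = 5 each). The log2 difference was -1.68 ± 0.32 (SE), with a limma adjusted p of 0.003. With a pseudocount of 0.1 it was -2.82, and with voom on rebuilt reads -3.60.

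Upk3b had 9.57, 5.46, 18.1, 3.88 and 3.52 FPKM in the AMH libraries at 4 h, against 39.3, 24.1, 11.9, 23.4 and 23.5 FPKM in the control libraries. The groups overlapped only through AMH library 3 and control library 3. Upk3b averaged 8.09 ± 6.06 FPKM in AMH uteri and 24.4 ± 9.76 FPKM in control uteri, a log2 difference of -1.62 ± 0.31 (SE, limma adjusted p = 0.003).

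Bnc1 had 0.662, 0.243, 1.3, 0.183 and 0.228 FPKM in the AMH libraries at 4 h, against 3.17, 1.40, 1.43, 1.41 and 0.975 FPKM in the control libraries. AMH library 3 was again the highest of its group and the only one above a control. The log2 difference of Bnc1 was -0.81 ± 0.18 (SE, limma adjusted p = 0.0055), -1.70 with a pseudocount of 0.1 and -1.97 with voom. All of Lrrn4, Upk3b and Bnc1 were also called with any 1 of the 10 libraries left out, and without the libraries high in oviduct, oestrogen-responsive or ovary markers.

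Msln, Upk1b and Gpm6a did not pass the threshold. Msln had 7.82, 1.95, 10.3, 0.645 and 1.02 FPKM in the AMH libraries at 4 h, against 21.6, 9.24, 2.27, 9.98 and 7.53 FPKM in the control libraries. Its log2 difference was -1.24 ± 0.47 (SE, limma adjusted p = 0.057), and the 3 lowest Msln values of the series were those of AMH libraries 2, 4 and 5. Upk1b averaged 2.47 ± 1.66 FPKM in AMH uteri and 4.71 ± 2.75 FPKM in control uteri (SD, n = 5 each; log2 difference -0.71 ± 0.29, limma adjusted p = 0.072). Gpm6a averaged 4.40 ± 1.42 FPKM in AMH uteri and 6.56 ± 2.84 FPKM in control uteri (log2 difference -0.46 ± 0.17, limma adjusted p = 0.055). Without AMH library 3, or without control library 3, these 3 genes were called as well, which made 6 of 7, all lower. Without control library 1 they were farther from the threshold, with log2 differences of -0.92 for Msln (limma adjusted p = 0.19), -0.47 for Upk1b (0.26) and -0.26 for Gpm6a (0.25).

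Wt1 differed from the other 6 in direction. Wt1 had 25.1, 27.6, 22.1, 25.6 and 24.0 FPKM in the AMH libraries at 4 h, against 18.4, 20.7, 17.6, 21.2 and 23.5 FPKM in the control libraries. Every AMH library lay above the control median, and the log2 difference of 0.29 ± 0.17 did not pass (SE, limma adjusted p = 0.24). Muc16 had 0.0145 to 0.212 FPKM in AMH libraries with a median of 0.055, against 0.143 to 0.357 FPKM with a median of 0.171 in control libraries. With no filter on low values, Muc16 had a limma adjusted p of 0.51.

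The low values were gathered in few libraries. AMH 4 h libraries 2, 4 and 5 took a place among the 3 lowest of 40 for 5, 6 and 6 of the 8 genes. Control 4 h library 1 was among the 3 highest of 40 for 7 of them, all but Wt1. Without that control library the log2 differences were -1.42 for Lrrn4 (limma adjusted p = 0.014), -1.43 for Upk3b (limma adjusted p = 0.014) and -0.64 for Bnc1 (limma adjusted p = 0.021).

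Other lists were read in the same comparison, where 20% of all tested genes were called and 10.9% fell. Of 30 further genes listed for mesothelium, 26 were tested, 0 fell and 1 rose in AMH uteri at 4 h by limma, with 5 at an unadjusted p under 0.05 and a median log2 difference of -0.19. The gene that rose was Efemp1, a fibulin of the extracellular matrix, at 59.8 ± 10.5 FPKM in AMH uteri and 39.2 ± 9.76 FPKM in control uteri (SD, n = 5 each; limma adjusted p = 0.044). Of 21 oestrogen-responsive genes 5 fell (Lcn2, Padi2, Igf1, Ccnd1 and Gjb2), with a median log2 difference of -0.89, and the list's mean log2 level was 3.13 to 3.65 in AMH libraries and 3.81 to 4.70 in control libraries. Of 13 markers of uterine epithelium limma called 0, with 4 at an unadjusted p under 0.05 and list means of 4.91 to 5.48 in AMH libraries and 5.20 to 5.70 in control libraries. Of 14 oviduct and ciliated markers limma called 0, with 0 at that level and list means of 1.27 to 1.68 in AMH libraries and 1.18 to 2.66 in control libraries. Of 7 adipocyte markers limma called 0, with 0 at that level and list means of 0.76 to 4.62 in AMH libraries and 2.68 to 4.58 in control libraries. Of the lists for stroma, smooth muscle, blood endothelium, nerve and the rest of urothelium, limma called 2 of 12 (lower), 3 of 11 (1 higher, 2 lower), 1 of 7 (higher), 1 of 6 (higher) and 1 of 4 (higher). The urothelial call was Krt20, a low gene at 0.929 FPKM in AMH uteri and 0.155 FPKM in control uteri. The median log2 difference of its list was -0.69. Limma called 0 of 11 squamous and 0 of 6 ovary markers, with 0 at an unadjusted p under 0.05 in either. The squamous list means were 0.56 to 3.25 in AMH libraries and 0.56 to 4.26 in control libraries. The part of these lists in the differences of the mesothelial genes was not tested.

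**Figure D2:**
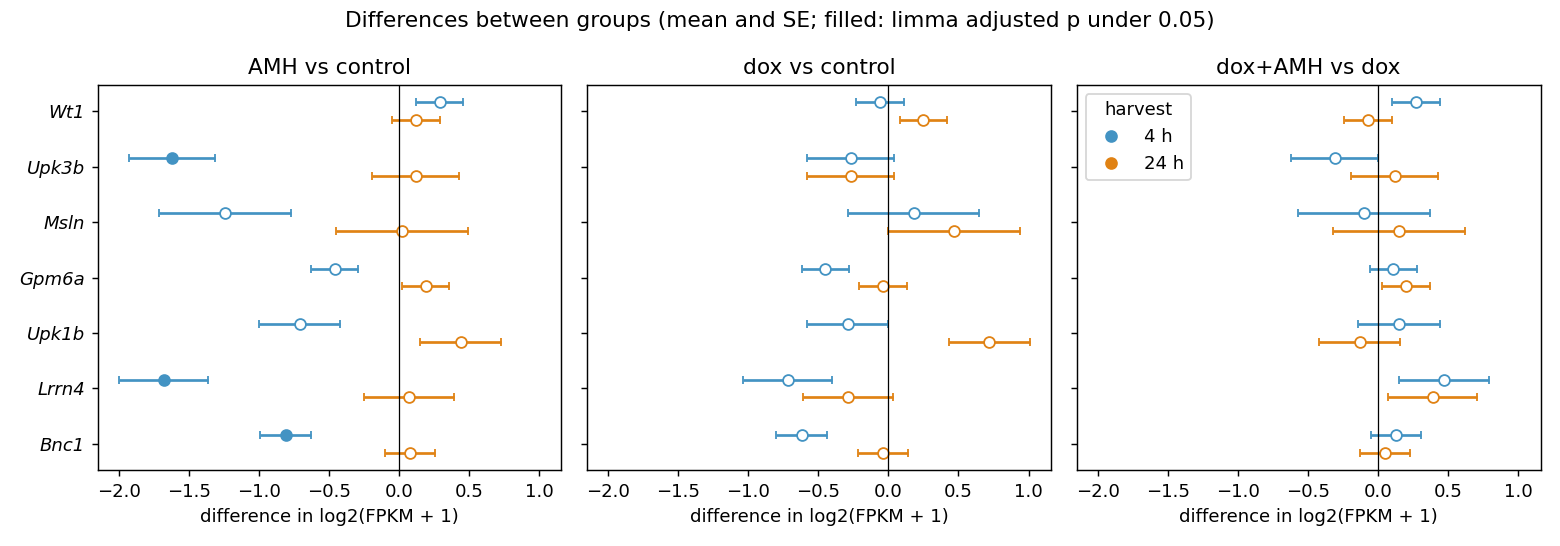
Log2 differences in FPKM + 1 (points, with SE bars) of the 7 tested mesothelial genes for AMH against control, dox against control and dox+AMH against dox, at 4 h (blue) and 24 h (orange). Filled points passed limma's adjusted threshold. Only Lrrn4, Upk3b and Bnc1 after AMH at 4 h are filled, at -1.68, -1.62 and -0.81.

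At 24 h after AMH the levels were close to control. No gene of the 7 was called by limma, and 0 had an unadjusted p under 0.05, where 0.462% of all tested genes were called. Lrrn4 averaged 3.67 ± 1.29 FPKM in AMH uteri and 3.70 ± 2.18 FPKM in control uteri (SD, n = 5 each). Upk3b averaged 16.6 ± 5.26 FPKM in AMH uteri and 15.0 ± 4.41 FPKM in control uteri. Bnc1 averaged 1.09 ± 0.180 FPKM in AMH uteri and 0.986 ± 0.191 FPKM in control uteri. All 7 differences lay above 0, with a median of 0.12 on the log2 scale against -0.009 over all tested genes.

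Within AMH-treated uteri, Lrrn4 and Upk3b rose at 24 h relative to 4 h, where 2.47% of all tested genes rose and 4.01% were called in either direction. This comparison uses the same AMH 4 h libraries as the one before. Lrrn4 had 3.47, 2.93, 5.08, 4.84 and 2.04 FPKM in the AMH libraries at 24 h, against 1.46, 0.838, 2.90, 0.241 and 0.0114 FPKM at 4 h. The highest 4 h library lay above the lowest 24 h library, and the log2 difference was 1.28 ± 0.32 (SE, limma adjusted p = 0.027). Upk3b had 20.1, 13.8, 17.1, 22.7 and 9.25 FPKM at 24 h, against 9.57, 5.46, 18.1, 3.88 and 3.52 FPKM at 4 h, a log2 difference of 1.12 ± 0.31 (SE, limma adjusted p = 0.038). The 24 h libraries lay above the 4 h median in every case for both genes. Msln (log2 difference 1.12 ± 0.47), Upk1b (0.68 ± 0.29) and Bnc1 (0.50 ± 0.18) had limma adjusted p-values of 0.13, 0.13 and 0.085. Both calls were lost without AMH 4 h library 4 or 5, or without AMH 24 h library 2, 3 or 4, where none of the 7 genes was called. The count was 1 without AMH 4 h library 1 or 2, and 0 without the libraries high in oestrogen-responsive or in ovary markers.

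The AMH difference at 24 h was set directly against that at 4 h in the same fit. No mesothelial gene passed by limma, and 5 of 7 had an unadjusted p under 0.05, where 0.154% of all tested genes were called. Lrrn4 had a difference of differences of 1.75 ± 0.45 and Upk3b of 1.74 ± 0.43 on the log2 scale (SE, limma adjusted p = 0.089 for each). Bnc1 had 0.89 ± 0.26 (SE, limma adjusted p = 0.14). Leaving out AMH 4 h library 3 or control 4 h library 3 brought the count to 2.

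Control uteri were themselves not level over time. Gpm6a fell at 24 h relative to 4 h in control uteri, the only call among the 7, where 3.04% of all tested genes fell and 7.32% were called. Gpm6a had 3.77, 3.54, 5.22, 3.35 and 3.65 FPKM in the control libraries at 24 h, against 11.5, 5.44, 4.15, 5.49 and 6.26 FPKM at 4 h. Control 4 h library 1 stood far above the rest and control 24 h library 3 lay inside the range of the 4 h group. The log2 difference was -0.57 ± 0.17 (SE, limma adjusted p = 0.039). Without control 4 h library 1 the count was 0, as it was without control 4 h library 5, any of control 24 h libraries 1, 2, 4 and 5, or the libraries high in oviduct or in ovary markers. Without the libraries high in oestrogen-responsive genes the Gpm6a difference was -0.23 (limma adjusted p = 0.65), and Wt1, higher at 24 h, was the 1 call. That setting left only control 24 h libraries 3 and 5 at 24 h, with Wt1 at 31.9 and 30.7 FPKM, so both results rest on few libraries. Upk3b averaged 15.0 ± 4.41 FPKM at 24 h and 24.4 ± 9.76 FPKM at 4 h in control uteri (log2 difference -0.62 ± 0.31, limma adjusted p = 0.22). The median log2 difference of the 7 genes was -0.46, against 0.014 over all tested genes.

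Doxorubicin alone gave no call among the 7 genes at either time by limma. At 4 h, where 0.493% of all tested genes were called, 3 of the 7 had an unadjusted p under 0.05. Bnc1 had 0.416, 0.953, 0.525, 1.00 and 0.613 FPKM in dox libraries, against 3.17, 1.40, 1.43, 1.41 and 0.975 FPKM in control libraries. The highest dox value lay just above the lowest control value and the other dox values below it, and the log2 difference was -0.62 ± 0.18 (SE, limma adjusted p = 0.12). Lrrn4 averaged 2.65 ± 0.486 FPKM in dox uteri and 5.63 ± 3.47 FPKM in control uteri (log2 difference -0.72 ± 0.32, limma adjusted p = 0.36). Gpm6a averaged 4.34 ± 0.846 FPKM in dox uteri and 6.56 ± 2.84 FPKM in control uteri (log2 difference -0.45 ± 0.17, limma adjusted p = 0.27). Msln averaged 10.2 ± 4.10 FPKM in dox uteri and 10.1 ± 7.07 FPKM in control uteri.

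At 24 h, 18.4% of all tested genes were called between dox and control, and 0 of the 7 mesothelial genes by limma, with 1 at an unadjusted p under 0.05. That gene was Upk1b, with 2.85, 10.6, 5.85, 6.30 and 3.14 FPKM in dox libraries, against 3.59, 3.98, 2.98, 1.71 and 2.11 FPKM in control libraries. Dox library 2 was the highest of all 40 for Upk1b and the groups overlapped. The log2 difference was 0.72 ± 0.29 (SE, limma adjusted p = 0.07), and it was 0.49 without dox library 2. Dox 24 h library 2 was also the highest of 40 for the uroplakins of bladder, Upk2 at 4.68 FPKM and Upk3a at 8.66 FPKM, whose medians over 40 libraries were 0.560 and 0.0856 FPKM. Upk1a, another uroplakin of bladder, was 16.9 FPKM in that library, against a median of 12.2 and a highest value of 47.9 FPKM over the 40.

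Msln had 4.87, 4.35, 19.8, 24.0 and 12.9 FPKM in the dox libraries at 24 h, against 9.90, 10.8, 6.61, 5.66 and 5.83 FPKM in the control libraries. The 3 high dox libraries, 3, 4 and 5, were those with raised oviduct and ciliated markers, and libraries 1 and 2 lay below every control. The log2 difference of Msln was 0.47 ± 0.47 (SE, limma adjusted p = 0.48). Without the libraries high in oviduct markers it was -0.60 (limma adjusted p = 0.5). The part of oviduct tissue in the Msln values was not tested.

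AMH given with dox was compared with dox alone, and the addition changed none of the 7 genes past the threshold. No gene was called by limma at 4 h or at 24 h, and 0 had an unadjusted p under 0.05, where 0.00616% and 0.333% of all tested genes were called. Lrrn4 had 3.33, 4.02, 3.54, 5.37 and 4.04 FPKM in dox+AMH libraries at 4 h, against 2.56, 2.87, 2.46, 3.32 and 2.02 FPKM in dox libraries. The Lrrn4 values of these groups did not overlap, and the log2 difference was 0.47 ± 0.32 (SE, limma adjusted p = 0.76). Upk3b averaged 15.6 ± 5.32 FPKM in dox+AMH uteri and 19.1 ± 4.19 FPKM in dox uteri at 4 h (log2 difference -0.31 ± 0.31). Bnc1 averaged 0.850 ± 0.155 FPKM in dox+AMH uteri and 0.702 ± 0.261 FPKM in dox uteri at 4 h. At 24 h the 7 log2 differences had a median of 0.12.

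Whether the AMH difference at 4 h was itself different under dox was tested as a comparison added after the data were seen. No mesothelial gene passed by limma and none of the 16226 did (0%). An unadjusted p under 0.05 was found for 5 of the 7, and for 2356 of the 16226. Lrrn4 had a difference of 2.15 ± 0.45 between dox+AMH over dox and AMH over control (SE, limma adjusted p = 0.13). Bnc1 had 0.94 ± 0.26 (limma adjusted p = 0.18) and Upk3b 1.31 ± 0.43 (limma adjusted p = 0.21). When these 4 groups alone were fitted, 2 of the 7 passed.

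The remaining comparisons gave no call among the 7 genes by limma. In dox+AMH uteri against control uteri 0.394% of all tested genes were called at 4 h and 34.3% at 24 h, with 1 mesothelial gene at an unadjusted p under 0.05 at each time. The one at 4 h was Bnc1, at 0.850 ± 0.155 FPKM in dox+AMH uteri and 1.68 ± 0.858 FPKM in control uteri (SD, n = 5 each; limma adjusted p = 0.18). The one at 24 h was Upk1b, at 4.72 ± 0.696 FPKM in dox+AMH uteri and 2.87 ± 0.960 FPKM in control uteri (limma adjusted p = 0.1). Between 24 h and 4 h, 1.58% of all tested genes were called in dox uteri and 0.074% in dox+AMH uteri. Wt1 was the one mesothelial gene at an unadjusted p under 0.05 in dox uteri, with 26.0 ± 2.14 FPKM at 24 h and 19.5 ± 3.02 FPKM at 4 h and no overlap (limma adjusted p = 0.24). In dox+AMH uteri 0 of the 7 reached that level. The change of the dox difference between times, and that of AMH under dox, gave 0 calls by limma where 0.0123% and 0% of all genes were called, with 2 and 0 of the 7 at an unadjusted p under 0.05.

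At 24 h some genes of the further mesothelial list were called against control, at shares near those of all tested genes. In dox uteri 4 of its 26 tested genes rose (Efemp1, Slpi, Sbspon and Dmkn) and 1 fell (Ptgis), where 18.4% of all genes were called. In dox+AMH uteri 5 rose (Efemp1, Rarres2, Rspo1, Nkain4 and Slpi) and 5 fell (Krt7, Krt8, Hspb1, Ptgis and Gata6), where 34.3% were called. Other lists moved as well. Of 11 smooth muscle markers 11 fell in dox uteri and 10 in dox+AMH uteri, and 13 of 21 oestrogen-responsive genes fell in dox+AMH uteri (median log2 difference -1.73). Of 14 oviduct and ciliated markers 2 rose in dox uteri (median log2 difference 1.41). The part of these lists in the values below was not tested. Slpi, a protease inhibitor of secretions, averaged 5.26 ± 2.97 FPKM in dox uteri and 0.790 ± 0.440 FPKM in control uteri at 24 h (SD, n = 5 each; limma adjusted p = 0.0051). Krt7 and Krt8, keratins of mesothelium and of uterine epithelium alike, fell in dox+AMH uteri at 24 h. Krt8 averaged 155 ± 18.5 FPKM there and 351 ± 228 FPKM in control uteri (limma adjusted p = 0.02), where libraries 1, 2 and 4 of the controls were high in oestrogen-responsive genes. Nkain4, a membrane protein that interacts with the sodium pump, averaged 7.15 ± 1.89 FPKM in dox+AMH uteri and 2.68 ± 0.969 FPKM in control uteri (limma adjusted p = 0.0074). Gata6 went the other way, at 4.03 ± 0.444 FPKM in dox+AMH uteri and 5.54 ± 1.12 FPKM in control uteri (limma adjusted p = 0.037). In the other comparisons of groups, AMH against control at 4 h apart, limma called 0 of the 26, with 2 to 7 at an unadjusted p under 0.05.

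The mesothelial genes other than Wt1 varied together from library to library. After subtraction of each group's mean, log2(FPKM + 1) values were correlated over the 40 libraries, with permutation of libraries within groups (100000 draws, two-sided) and Benjamini-Hochberg adjustment over the 28 pairs. Of the 21 pairs without Wt1 all were positive, with a Pearson r of 0.33 to 0.90 and a median of 0.63, and 19 passed (20 by Spearman's rho). Without the 2 libraries farthest from the median of the first gene, r ran from 0.19 to 0.87. Msln and Upk3b gave the highest value, r = 0.90 and rho = 0.89 (r = 0.87 without the 2 farthest libraries), followed by Lrrn4 and Upk3b at r = 0.84 and rho = 0.81 (r = 0.79 without them). For both pairs r and rho had a permutation p of 1e-05, the smallest the draws can give, and an adjusted p of 7e-05. Because groups differ in spread, the r that passes differs between pairs. The genes of a library share its scaling, and the labels used here name no batch to split the libraries by.

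Wt1 did not vary in the same direction as the others. Its 7 pairs had r of -0.45 to 0.00 with a median of -0.25, and the 4 that passed, with Lrrn4, Upk3b, Msln and Bnc1, were negative. Without the 9 libraries high in oestrogen-responsive genes 0 of the 7 passed, at r of -0.33 to -0.03. Correlations with the marker lists were adjusted over the 96 pairs of gene and list, of which 26 passed by Pearson's r. The r of Wt1 was -0.89 with the oestrogen-responsive list and its rho -0.71 (permutation p = 1e-05 and 6e-05, adjusted p = 0.00019 and 0.00082), with r = -0.80 without the 2 farthest libraries. With uterine epithelium r was -0.81 and rho -0.71, with blood endothelium 0.79 and 0.66, and with uterine stroma 0.54 and 0.53, where the permutation adjusted p-values for r were 0.00019, 0.00041 and 0.014. Without the 2 farthest libraries these r were -0.72, 0.67 and 0.47. Wt1 fell to 11.5 FPKM in control 24 h library 2 and 14.7 FPKM in AMH 24 h library 3, both high in oestrogen-responsive genes. Without the 9 libraries high in oestrogen-responsive genes the r of Wt1 with that list was -0.60 (permutation adjusted p = 0.023), and those with epithelium, endothelium and stroma were -0.55, 0.53 and 0.33 and did not pass. The 9 libraries were picked by the oestrogen-responsive list, which narrows its spread. A weaker r with that list, here and below, can come from this alone. Lrrn4, Upk3b, Msln and Bnc1 were tied by r to the same lists, stroma apart, in the opposite sign. Their r was 0.36 to 0.52 with the oestrogen-responsive list, 0.42 to 0.48 with uterine epithelium and -0.48 to -0.39 with blood endothelium, and all 12 of these pairs passed. With uterine stroma their r was -0.36 to -0.23 and did not pass. By rho stroma did pass with Upk3b (-0.41), Msln (-0.43) and Bnc1 (-0.39), at permutation adjusted p of 0.048, 0.031 and 0.048, and not with Lrrn4 (-0.29, 0.21). Without the 9 libraries high in oestrogen-responsive genes, Lrrn4 passed with none of these lists (r = 0.37, 0.25 and -0.41, permutation adjusted p = 0.19, 0.3 and 0.074). Of these lists Upk3b then passed with endothelium only (r = -0.51), and Msln with all but stroma. Without the libraries high in oviduct markers, Upk3b passed with epithelium only (r = 0.41). In whole uterus Wt1 thus did not share the variation of the other 7 genes, and part of that variation ran with lists of other compartments.

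**Figure D3:**
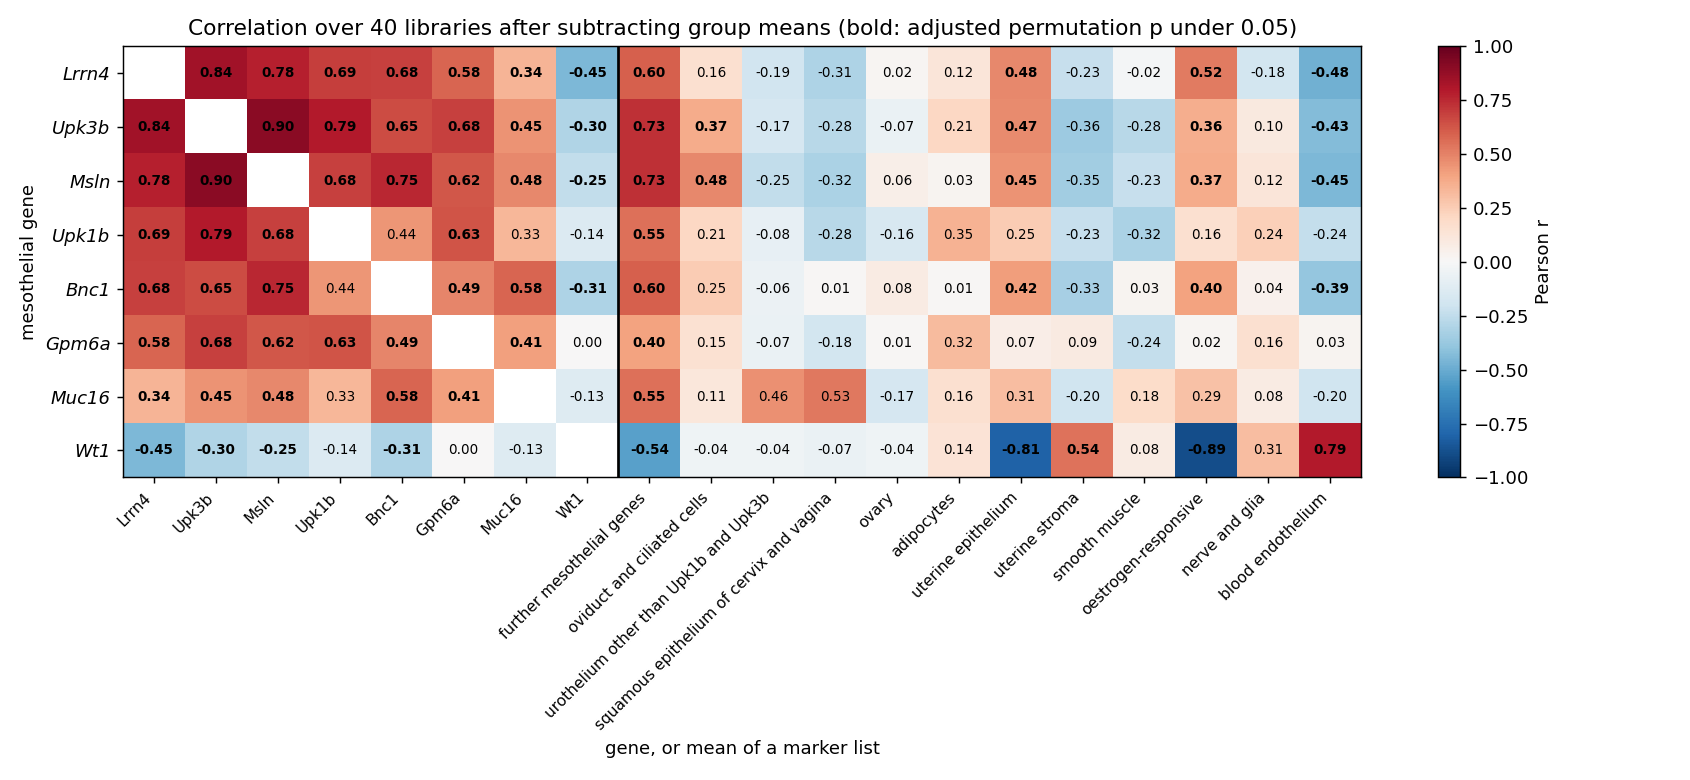
Pearson r over 40 libraries after subtraction of group means, for each mesothelial gene (rows) with the other genes and with the mean of each marker list (columns). Bold values passed the adjusted permutation threshold. The block of 7 genes is positive throughout (0.33 to 0.90), and the Wt1 row is 0.00 or below with each of them and -0.89 with the oestrogen-responsive list.

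The further mesothelial list correlated positively with each of the 7 genes other than Wt1, at r of 0.40 to 0.73, and passed with each. Its r with Wt1 was -0.54, and -0.35 without the libraries high in oestrogen-responsive genes, where it did not pass. The further list shares Krt7, Krt8, Krt18, Krt19 and Cdh1 with the uterine epithelium list, and C3 with the oestrogen-responsive list. These shared genes had r with Wt1 of -0.88 (Krt8) to -0.39 (Krt18). The other genes of the list ran from -0.72 (Ezr) to 0.68 (Efemp1). With Gpm6a the further list did not pass without the libraries high in oviduct (r = 0.34), ovary (0.39) or oestrogen-responsive markers (0.45). Msln correlated with oviduct and ciliated markers at r = 0.48 and rho = 0.54 (permutation p = 0.0014 and 0.0011, adjusted p = 0.0082 and 0.0063), with r = 0.52 without the 2 farthest libraries. Upk3b correlated with them at r = 0.37 and rho = 0.39 (permutation p = 0.006 and 0.012, adjusted p = 0.024 and 0.043), with r = 0.41 without the 2 farthest. Neither relation passed without the 8 libraries high in oviduct markers, where r was 0.21 for Msln and 0.13 for Upk3b (permutation adjusted p = 0.65 and 0.74). These libraries were picked by the oviduct list itself. Leaving them out narrows the spread of that list and by itself lowers r, so this setting cannot decide whether the relations hold. Muc16 had r = 0.53 with squamous epithelium of cervix and vagina, which did not pass (permutation adjusted p = 0.12) and was 0.14 without the 2 farthest libraries. Library 2 of dox 4 h held both the highest Muc16, 0.834 FPKM, and the highest squamous list mean, 5.20 on the log2 scale.

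**Figure D4:**
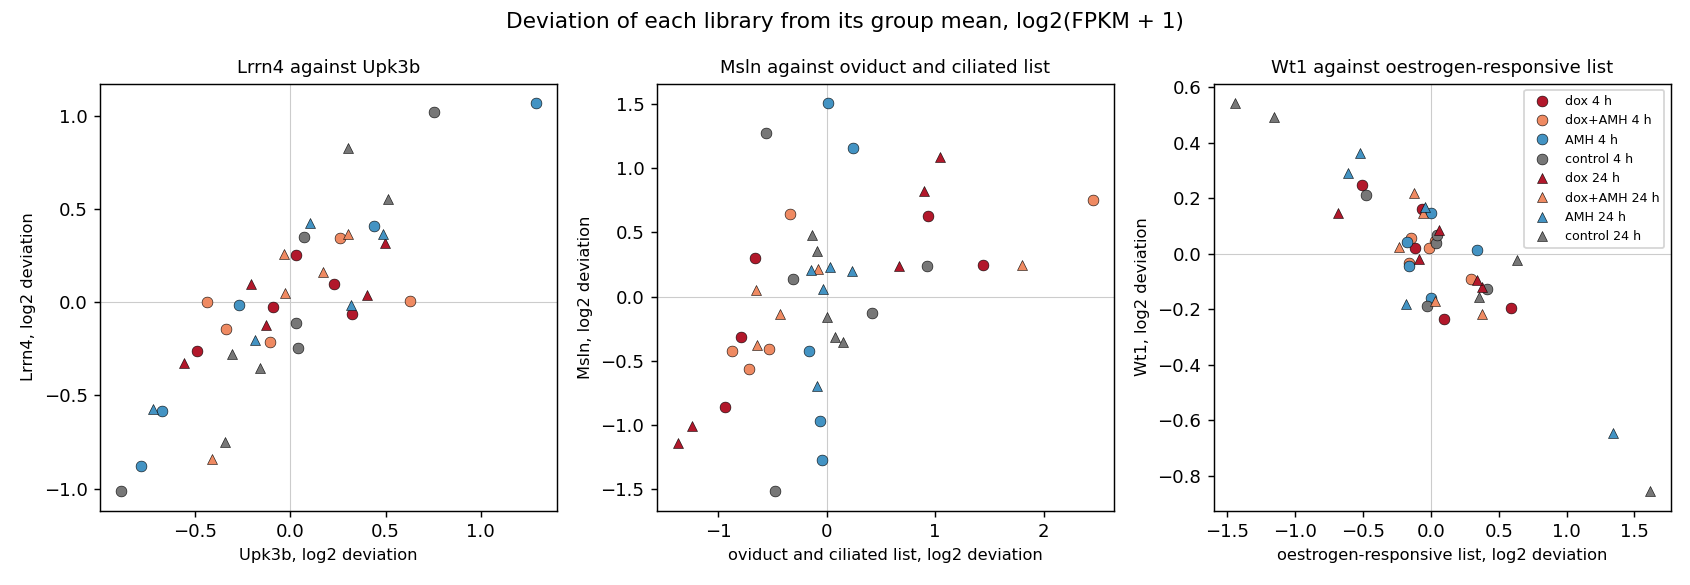
Each point is 1 of 40 libraries, as its deviation from its group mean in log2(FPKM + 1), for Lrrn4 against Upk3b (r = 0.84), Msln against the oviduct and ciliated list (r = 0.48) and Wt1 against the oestrogen-responsive list (r = -0.89). Circles are 4 h and triangles 24 h, with colours for dox, dox+AMH, AMH and control. Lrrn4 goes up with Upk3b and Wt1 goes down with the oestrogen list.

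The genes whose library-to-library pattern was most like that of the 8 were ranked by their median r with them, over the 16219 other tested genes and 40 libraries, with group means subtracted. The leading 10 were Chst4 (median r 0.678), Myrf (0.657), Tmem151a (0.657), Nkain4 (0.639), Stk26 (0.581), Fgf1 (0.577), Cldn15 (0.553), Crb2 (0.544), Gata6 (0.543) and Rpp25 (0.542). Nkain4, Cldn15 and Gata6 were already on the further mesothelial list. Chst4, a sulfotransferase, was nearest to Msln (r = 0.86), Nkain4 to Upk3b (0.84) and to Upk1b (0.77), and Rpp25, a subunit of RNase P, to Lrrn4 (0.78). For Wt1 the nearest were Thsd1 and Rem1 (0.89 each) and Mapk8ip1 (0.88), none of which was among the 10. Lgals7, Alox12 and Ppp1r13l (0.66 each) were nearest to Muc16 and also outside the 10. So were C2 (0.75) and Pnp2 (0.69), next after Nkain4 for Upk1b, and Tmem98 (0.62), next after Stk26 (0.68) for Gpm6a.

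The ranking used deviations from group means, so the group differences of these 10 genes were not part of it. In AMH uteri at 4 h 4 of the 10 fell relative to control, where 10.9% of all tested genes fell and 20% were called in either direction. Myrf, a membrane-bound transcription factor, averaged 1.25 ± 0.763 FPKM in AMH uteri and 3.53 ± 1.26 FPKM in control uteri (SD, n = 5 each; log2 difference -1.02 ± 0.24, limma adjusted p = 0.0068). Fgf1, a fibroblast growth factor, averaged 3.15 ± 2.47 FPKM in AMH uteri and 11.5 ± 5.86 FPKM in control uteri (limma adjusted p = 0.021). Rpp25 had a log2 difference of -1.05 ± 0.25 (limma adjusted p = 0.0072) and Tmem151a of -0.57 ± 0.16 (limma adjusted p = 0.015). Gata6, a transcription factor of the coelomic lining, averaged 3.92 ± 0.652 FPKM in AMH uteri and 3.99 ± 0.599 FPKM in control uteri (limma adjusted p = 0.92). All 10 of the differences lay below 0. The 10 genes were picked for varying with the same mesothelial genes, so they are not 10 separate observations.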

How the data were processed

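RNA of 40 uterus libraries was measured by RNA-seq, with groups of 5 read from the labels. FPKM values per gene, with gene lengths, came in a single deposited table, per the file headers, and mm10 is named in the submitters' processing notes. Aligner, counter, annotation release and strand setting: not given in the sources used here. FPKM times length gave whole reads in 100% of values (tolerance 0.01 reads), used for depth and for the count-based alternative (voom).

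The 16226 genes that reached 1 FPKM in 5 or more libraries entered limma (version 3.58.1, R 4.3.3) on the log2(FPKM + 1) scale, with 1 fit over all groups with 32 residual degrees of freedom, two-sided, Benjamini-Hochberg threshold 0.05. Correlations used 100000 permutations within groups, and the smallest p these can give is 1e-05. The rule for names took every member, the 10 genes with the highest median r with them, and the 3 nearest of each. It also took each further mesothelial gene called in a comparison where that list is discussed. The highest genes of each marker list were part of the rule as well, and not all of those are named. The members and lists were chosen with earlier results of these data known. Intervals of count data cover counting error only. Libraries of a group all differed beyond sampling noise, with a chi-square per degree of freedom of 9.78 or more. Alternatives were another pseudocount, filter, scaling, weights, the groups compared alone, a replicate block, and leaving out each library or the libraries high in other tissues' markers. The scaling alternative, by median of ratios, gave a factor of 1 for every library, so it repeats the main test and is no separate check. Promoters came from RefSeq, build GRCm38.p6.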

Additional observations from a re-analysis of the deposited data

Results flagged for a closer look

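Of 64 sets of 1 gene in 1 group of 5 libraries, 8 had a library farther from the rest than Dixon's 95% critical value, and chance gives about 1 in 20. Control 4 h library 1 was the high one for Bnc1 (3.17 FPKM), Gpm6a (11.5 FPKM) and Muc16 (0.357 FPKM). Muc16 was also high in dox 4 h library 2 (0.834 FPKM) and in AMH 24 h library 1 (0.457 FPKM). Gpm6a was high in control 24 h library 3 (5.22 FPKM). Msln was low in AMH 24 h library 5 (4.33 FPKM), and Bnc1 was low in dox+AMH 24 h library 1 (0.545 FPKM).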

How the results depend on the processing

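Lrrn4, Upk3b and Bnc1 fell in AMH against control at 4 h under every alternative in which they were tested (the filter at 5 FPKM leaves Bnc1 out). The count of 3 became 6 with library weights and ran from 3 to 6 with 1 library left out. Wt1 was called in 1 of its 22 alternatives for this comparison (limma adjusted p = 0.023). Its log2 difference was 0.24 to 0.34 over them, higher in AMH uteri. The 2 calls at 24 h against 4 h in AMH uteri became 0 with no filter, with only the groups compared, and without the libraries high in oestrogen-responsive or in ovary markers, and ran from 0 to 2 with 1 library left out. The 1 call in control uteri became 0 with no filter, with only the groups compared, and without the libraries high in oviduct or ovary markers, and ran from 0 to 1. Without those high in oestrogen-responsive genes, which left control 24 h libraries 3 and 5 alone at 24 h, it was Wt1, higher at 24 h, in place of Gpm6a. Dox against control at 24 h gave 1 call with library weights (Wt1) and 1 with voom (Upk1b), and 0 to 1 with 1 library left out. Library weights also gave 1 call (Wt1) for dox+AMH against control at 24 h and for dox at 24 h against 4 h. The change of the AMH difference between times gave 0 to 2 with 1 library left out. The AMH difference under dox at 4 h gave 2 with only the groups compared, 2 with library weights, and 0 to 1 with 1 library left out. With 1 library left out, pairs passing ran from 19 to 25 among the 8 genes and from 24 to 30 with the lists. Without the libraries high in oviduct markers they were 20 and 21, and without those high in oestrogen-responsive genes, left out after the data were seen, 17 and 14. The 1 reversal was Msln in dox against control at 24 h, -0.60 without the libraries high in oviduct markers. The deviations of same-numbered libraries had r from -0.715 to 0.388, with 28 of 60 pairs over 0.1. Libraries of different number were not compared, so these r cannot decide whether the numbers are pairs. The numbers were not taken as pairs in the main test, and a replicate block left the counts at 3, 2 and 1. The cause of these shifts was not tested. Bnc1, Lrrn4 and Muc16 rest on few reads, which limits their precision.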
